A study of Mus musculus with 6 samples.

Results

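Hmox1 encodes heme oxygenase 1, the inducible enzyme that opens the heme ring. It was examined with 9 genes that act beside it: Hmox2, Blvra, Blvrb, Fth1, Ftl1, Slc40a1, Slc11a1, Slc48a1 and Tfrc. The 10 genes were selected by symbol, each filled 1 row of the 23108 named rows, and all 10 passed the filter on low values. RNA came from the distal colon of 8 week-old male mice, 3 wildtype and 3 TNFR2-/- (called knockout here), all labelled C57Bl/6, with no treatment named in the labels. TNFR2, encoded by Tnfrsf1b, is a receptor for tumor necrosis factor, and the comparison asks how its loss changes the colon transcriptome. The extent of the deletion and the relation between the wildtype and knockout mice are not described in the labels. The genotype comparison of these same libraries had placed Hmox1 among the lower genes of the knockout, and the other 9 were chosen as its pathway neighbours. For these reasons the members' genotype differences are given as a description, with no test.

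Heme oxygenases split heme into biliverdin, carbon monoxide and free iron. Biliverdin reductases turn biliverdin into bilirubin, ferritin stores the iron, and ferroportin, the product of Slc40a1, carries iron out of the cell. Macrophages that clear red blood cells use this route heavily, while in the gut epithelium the same storage and export proteins handle iron taken from the lumen.

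Part of this set is controlled after transcription through the iron-responsive element, an RNA hairpin that the iron regulatory proteins bind when iron is scarce. In a 5′ UTR the bound hairpin blocks translation, and in the 3′ UTR of Tfrc it protects the messenger from decay. RNA level therefore does not report the protein level of genes with the hairpin in the 5′ UTR, while for Tfrc this control acts on RNA level. Protein was not measured here for any of them. The 7 sites below are shown because 4 of the 10 genes carry a hairpin of the form described after them. Each is a 30 base window of the GENCODE M21 transcript in the GRCm38 assembly (mm10), written 5′ to 3′ on the gene's own strand, and capitals mark the 6 base loop.
Fth1, 5′ UTR, chr19:9982732-9982761, plus strand: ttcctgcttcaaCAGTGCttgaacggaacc
Ftl1, 5′ UTR, chr7:45459778-45459807, minus strand: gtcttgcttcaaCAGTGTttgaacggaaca
Slc40a1, 5′ UTR, chr1:45925464-45925493, minus strand: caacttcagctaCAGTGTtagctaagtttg
Tfrc, 3′ UTR, chr16:32631219-32631248, plus strand: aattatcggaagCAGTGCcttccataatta
Tfrc, 3′ UTR, chr16:32631598-32631627, plus strand: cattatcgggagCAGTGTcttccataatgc
Tfrc, 3′ UTR, chr16:32631663-32631692, plus strand: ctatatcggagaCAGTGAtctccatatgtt
Tfrc, 3′ UTR, chr16:32631710-32631739, plus strand: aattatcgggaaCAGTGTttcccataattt

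The search took a C, then 5 bases, the loop CAGTGN and 5 bases that pair with the 5 before the loop, G with T allowed, on the transcript strand. Such a hairpin was present in 294 of 21877 genes with a protein-coding transcript (1.34%). The Fth1 and Ftl1 windows were identical at 26 of 30 bases. The Slc40a1 window matched each of these at 13 of 30 bases, although its loop and its pairing have the same form. A match of this form is a description of sequence, and binding was not measured here.

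Values are FPKM, fragments scaled to transcript length and library size, so levels of different genes can be compared. The table gives no fragment counts. Depth was stated as a mean of 50M paired-end reads of 50 bp, the depth behind each value is unknown, and no counting interval is given. Between 12974 and 13625 named rows reached 1 FPKM in each library. Tnfrsf1b measured 7.49, 8.20 and 8.17 FPKM in wildtype libraries 1 to 3 and 1.17, 1.12 and 0.924 FPKM in TNFR2-/- mice 1 to 3, which matches the labels. Genes of colon epithelium were high in all 6 libraries (11 matched rows, summed level 8662 to 12372 FPKM). The libraries also held RNA of neighbouring tissue in unequal amounts. The summed level of 12 skeletal muscle rows was 10251, 3131 and 3741 FPKM in wildtype mice and 180.5, 2408 and 1825 FPKM in TNFR2-/- mice. For 12 skin rows it was 1066, 407 and 1133 against 65.3, 526 and 969.8 FPKM. Knockout library 1 was lowest in both. In bulk tissue, fewer cells of a type cannot be told apart from less RNA per cell.

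Hmox1 (chromosome 8, 75093617 to 75100593, mm10) had 10.5, 9.40 and 9.13 FPKM in wildtype mice. In the knockout libraries it had 4.13, 5.20 and 4.98 FPKM. All 3 knockout libraries lay below all 3 wildtype libraries, with a wide gap between the groups. The mean was 9.67 ± 0.725 FPKM in wildtype mice and 4.77 ± 0.562 FPKM in knockout (SD, n = 3 each), 49.3% of wildtype. On the log2(FPKM + 1) scale the difference, knockout minus wildtype, was -0.89 ± 0.10 (SE). In the authors' deposited table the log2 fold change of Hmox1 is -1.005 with an adjusted p-value of 0.110, and the gene is not marked as significant there. Hmox1 was the only one of the 10 genes in the called set of the genome-wide fit (limma, Benjamini-Hochberg adjusted p under 0.05), in which 0.288% of the 14564 tested genes were called, 0.185% higher and 0.103% lower in the knockout. Since this contrast chose Hmox1, nothing is read from that count. The call was lost without wildtype library 1 or 3 and without knockout library 2 or 3, with differences of -0.84, -0.93, -0.94 and -0.92. It was also lost with the replicate number as a block, at the same difference, and with the skeletal muscle, macrophage or erythroid list as a covariate.

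Hmox2 encodes heme oxygenase 2, the constitutive enzyme of the same reaction. It had 29.04, 26.9 and 24.8 FPKM in wildtype mice and 27.3, 24.0 and 27.2 FPKM in TNFR2-/- mice. The groups overlapped, and the log2 difference was -0.04 ± 0.09 (SE). Hmox2 was the more abundant oxygenase messenger in all 6 libraries, at 2.72 to 2.87 times Hmox1 in wildtype and 4.63 to 6.60 times in knockout. Expressed as a share of the 2 together, Hmox1 made up 26.6%, 25.9% and 26.9% of heme oxygenase RNA in the wildtype libraries. In the knockout libraries it made up 13.2%, 17.8% and 15.5%. With Hmox2 overlapping between genotypes, the ratio and the share restate the Hmox1 values. The summed level of both genes was 36.6 ± 2.80 FPKM in wildtype mice and 30.9 ± 1.54 FPKM in knockout (SD, n = 3 each). Hmox2 shares its locus in the table (chromosome 16, 4726360 to 4790268) with Cdip1, which lies on the opposite strand. The labels do not say whether the libraries kept the strand of reads, so reads of the 2 genes where they overlap may not have been separated. Cdip1, listed as 5730403B10Rik, had 15.8 ± 0.216 and 14.0 ± 0.746 FPKM.

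**Figure D1:**
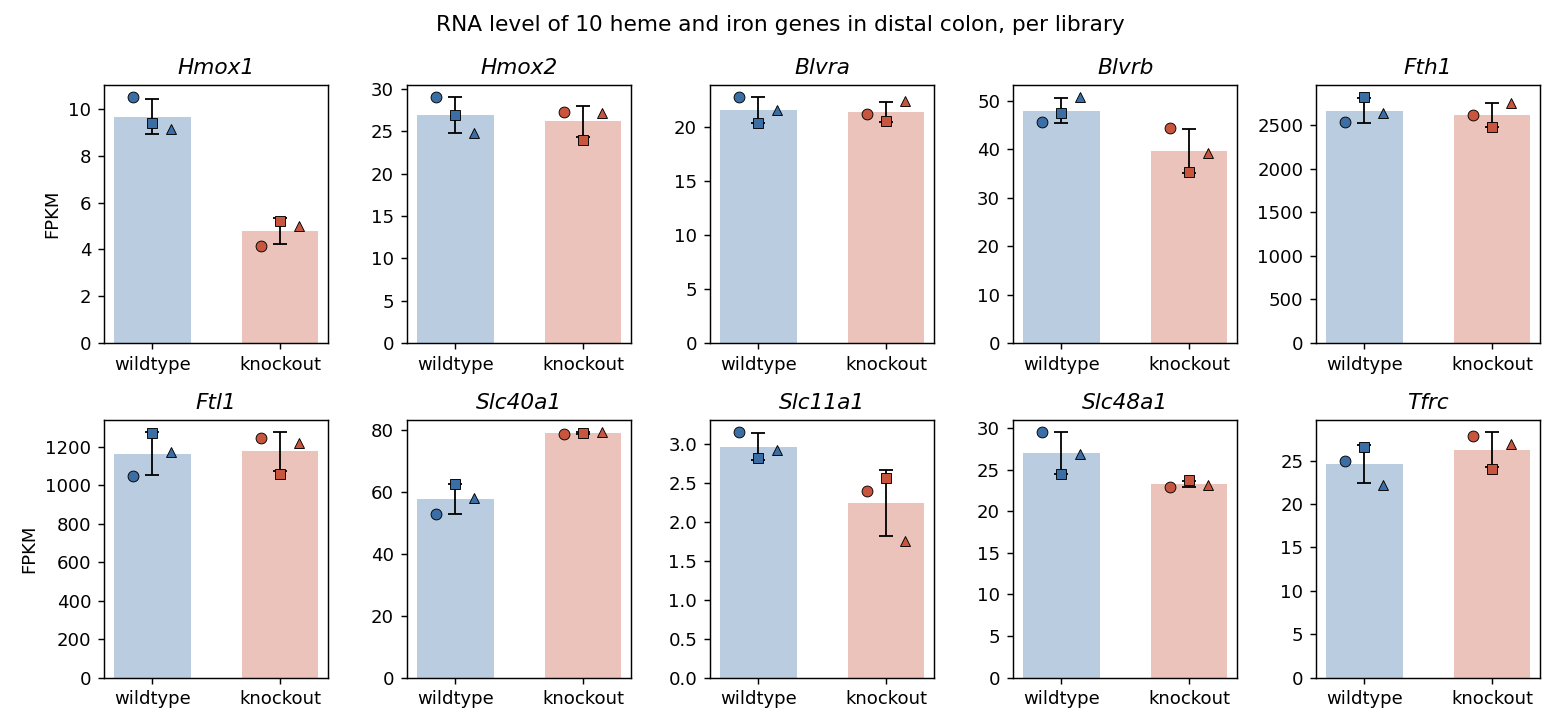
RNA level (FPKM, linear axis from 0, a separate scale per gene) of the 10 genes in wildtype and knockout libraries. Bars are means of 3 libraries, error bars are SD, and circles, squares and triangles are libraries 1, 2 and 3. Hmox1 sits at 9.13 to 10.5 FPKM in wildtype mice and 4.13 to 5.20 FPKM in knockout, while Slc40a1 is higher in all knockout libraries and the ferritin genes overlap between genotypes.

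Of the biliverdin reductases, Blvrb had groups that did not overlap and Blvra did not. Blvra, the main reductase of adult heme breakdown (chromosome 2, 127070654 to 127097112), had 22.7, 20.3 and 21.5 FPKM in wildtype mice and 21.2, 20.6 and 22.4 FPKM in TNFR2-/- mice. The groups overlapped throughout, and the log2 difference was -0.01 ± 0.07 (SE). Blvrb, which also acts as a flavin reductase (chromosome 7, 27447977 to 27465981), had 45.6, 47.6 and 50.8 FPKM against 44.5, 35.2 and 39.3 FPKM. Its groups did not overlap, but knockout library 1 lay just under the lowest wildtype library. The mean stood at 82.7% of wildtype, a log2 difference of -0.27 ± 0.10 (SE), and with the skeletal muscle list as a covariate the difference was -0.47 ± 0.10. The ratio of Blvrb to Blvra ranged from 1.72 to 2.36 over the 6 libraries and overlapped between the genotypes.

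The ferritin genes were by far the most abundant of the set. Fth1, the heavy chain with the iron-oxidising site (chromosome 19, 9980682 to 10001633), had 2538, 2818 and 2631 FPKM in wildtype mice. It had 2616, 2479 and 2751 FPKM in TNFR2-/- mice and ranked 11th of 14564 tested genes by mean. Ftl1, the light chain (chromosome 7, 45457943 to 45459886), had 1049, 1272 and 1175 FPKM in wildtype mice and 1247, 1061 and 1222 FPKM in TNFR2-/- mice. Both genes overlapped between genotypes, with log2 differences of -0.03 ± 0.07 for Fth1 and 0.01 ± 0.10 for Ftl1 (SE). The heavy to light chain ratio was narrow, 2.22 to 2.42 in wildtype and 2.10 to 2.34 in knockout libraries. Against Hmox1, Fth1 was 242 to 299.7 times as abundant in wildtype and 477 to 633 times in knockout. This ratio restates the Hmox1 values and is no separate difference. Ftl1 has 2 pseudogenes named after it in GENCODE M21, and the table's Fth1 locus also covers Best1, at 0.491 ± 0.170 and 0.347 ± 0.0780 FPKM. The labels do not say how reads shared by such copies were assigned.

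Of the 4 transport genes, Slc40a1 was higher in the knockout libraries. Slc40a1, the ferroportin gene (chromosome 1, 45908069 to 45925594), had 52.9, 62.3 and 57.8 FPKM in wildtype mice and 78.5, 79.0 and 79.2 FPKM in knockout. The knockout libraries lay close together and all above the wildtype range. The mean was 57.7 ± 4.74 FPKM in wildtype mice and 78.9 ± 0.367 FPKM in knockout (SD, n = 3 each), 1.37-fold, a log2 difference of 0.45 ± 0.08 (SE). In the authors' deposited table its log2 fold change is 0.45 with an adjusted p-value of 0.472. Relative to Hmox1, Slc40a1 stood at 5.04 to 6.63 times in wildtype and at 15.2 to 19.0 times in knockout libraries, a ratio that also holds the Hmox1 difference.

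Tfrc, the receptor that takes up transferrin-bound iron (chromosome 16, 32608895 to 32632794), had 24.9, 26.6 and 22.2 FPKM in wildtype. It had 27.9, 24.0 and 26.9 FPKM in TNFR2-/- mice. The groups overlapped, with a log2 difference of 0.09 ± 0.09 (SE). Both Tfrc and Slc40a1 carry hairpins of the form printed above, Tfrc downstream and Slc40a1 upstream of the coding sequence. The ratio of Slc40a1 to Tfrc was 2.12 to 2.60 in wildtype and 2.82 to 3.29 in knockout libraries. With Tfrc overlapping between genotypes, this ratio restates the Slc40a1 values and is no separate difference.

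Slc11a1, also called Nramp1, exports divalent metals from the phagosome of macrophages (chromosome 1, 74375202 to 74386051). It was the lowest of the 10, with 3.15, 2.82 and 2.92 FPKM in wildtype mice and 2.40, 2.56 and 1.76 FPKM in TNFR2-/- mice. The groups did not overlap, and knockout library 3 lay well below the other two. The mean stood at 75.5% of wildtype, a log2 difference of -0.30 ± 0.11 (SE). With the macrophage list as a covariate the Slc11a1 difference was -0.05 ± 0.12, and with the erythroid list -0.11 ± 0.16. The mean log2 level of the macrophage list was itself 4.104 to 4.205 in wildtype and 3.571 to 4.025 in knockout libraries. List and genotype therefore cannot be told apart in the macrophage fit.

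Slc48a1, which moves heme out of lysosomes (chromosome 15, 97784364 to 97844502), had 29.5, 24.5 and 26.9 FPKM in wildtype mice and 22.9, 23.7 and 23.2 FPKM in TNFR2-/- mice. The groups did not overlap, but wildtype library 2 lay close above the knockout libraries. The mean stood at 86.4% of wildtype, a log2 difference of -0.20 ± 0.08 (SE). Under quantile normalization or upper quartile scaling its groups overlapped. Without wildtype libraries 1 and 3 and knockout library 1 the difference was -0.06. Over the 6 libraries Slc48a1 stood in the same order as the summed skeletal muscle list, and with that list as a covariate its difference was -0.11 ± 0.11. Hdac7 lies on the opposite strand of the same locus in the table, at 7.21 ± 0.949 and 5.64 ± 0.633 FPKM.

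By mean level the order was Fth1, Ftl1, Slc40a1, Blvrb, Hmox2, Tfrc, Slc48a1, Blvra, Hmox1 and Slc11a1. Hmox2 and Tfrc overlapped in range, with Hmox2 higher in 5 of 6 libraries, and so did Tfrc and Slc48a1, with Tfrc higher in 4 of 6. Slc48a1 exceeded Blvra by a median of only 1.178-fold. The other neighbours were separated in all 6 libraries. Hmox1 exceeded 44.2% of the tested genes in mean level and Slc11a1 exceeded 21.3%. The other 8 genes exceeded between 72.9% and 99.9%.

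Between genotypes, 5 of the 10 genes had groups that did not overlap, 4 lower and 1 higher in the knockout. Among all tested genes this held for 21.8%, with 12.5% lower and 9.3% higher. The other 5 genes, Hmox2, Blvra, Fth1, Ftl1 and Tfrc, overlapped. The median log2 difference of the 10 was -0.03, and that of all tested genes was -0.03 too, and 7 of 10 had lower means, against 57.4% of all tested genes. Because the genotype contrast chose the set, nothing is read from these shares.

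**Figure D2:**
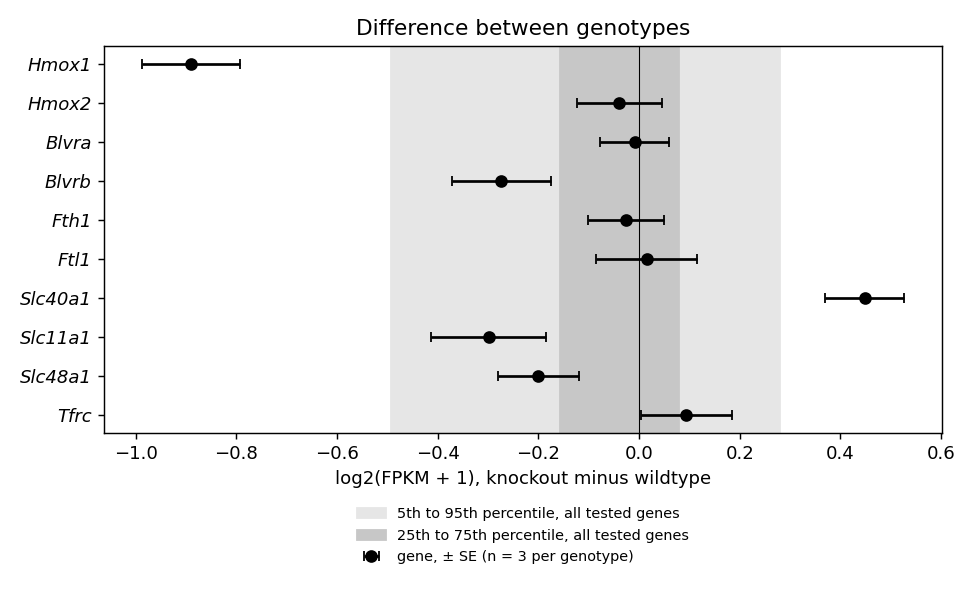
Difference between genotypes on the log2(FPKM + 1) scale, knockout minus wildtype, for the 10 genes (points, with SE, n = 3 per genotype). Dark and light grey bands hold the middle 25th to 75th and 5th to 95th percentiles of all 14564 tested genes. Hmox1 at -0.89 lies below the light band and Slc40a1 at 0.45 above it, and the other 8 genes lie inside it.

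Most macrophage markers had lower means in the knockout, as Hmox1 did. Of 13 tested macrophage genes 12 had lower means without TNFR2 and 1 had a higher mean, and the median log2 difference was -0.39. No gene was called in limma (Benjamini-Hochberg adjusted p of at least 0.191), with or without the intensity trend. An unadjusted p under 0.05 in limma was seen for 10 of the 13, and for 16.2% of all tested genes. The summed level of 15 macrophage rows was 564, 498 and 529 FPKM in wildtype mice and 424, 434 and 301 FPKM in TNFR2-/- mice. Lyz2, a lysozyme of myeloid cells, had 222 ± 21.1 and 148 ± 32.4 FPKM, and the complement gene C1qa had 81.1 ± 7.33 and 61.0 ± 11.5 FPKM (SD, n = 3 each). Mertk, a receptor for dying cells, was the exception at 10.8 ± 1.04 against 14.0 ± 0.555 FPKM. Cd163, the receptor for hemoglobin bound to haptoglobin, had 5.90, 5.74 and 5.92 FPKM in wildtype mice and 4.43, 5.93 and 3.01 FPKM in TNFR2-/- mice. Its groups overlapped, and knockout library 2 was the highest of all 6. Spic, a transcription factor of iron-recycling macrophages, was under the minimum for testing at 0.374 ± 0.0791 and 0.202 ± 0.0446 FPKM, and Marco was at most 0.266 FPKM. Mertk, Cd163, Spic and Marco were named after their values were seen.

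Slc11a1 stood in the same order as the summed macrophage list over all 6 libraries. The most abundant rows weigh most in that sum. Lyz2 alone made up 246 of 564 FPKM in wildtype library 1 and 110 of 301 FPKM in knockout library 3. Per 100 FPKM of that list it had 0.558, 0.566 and 0.552 FPKM in wildtype mice and 0.566, 0.590 and 0.585 FPKM in TNFR2-/- mice, so that the genotypes overlapped on this scale. Hmox1 per 100 FPKM of the same list was 1.86, 1.89 and 1.72 in wildtype and 0.974, 1.20 and 1.66 in knockout libraries. These groups did not overlap, but knockout library 3, the lowest in macrophage genes, came close to wildtype. Slc40a1 per 100 FPKM of the list was 9.37, 12.5 and 10.9 in wildtype and 18.5, 18.2 and 26.4 in knockout libraries. On this scale Hmox2, Blvra, Fth1, Slc48a1 and Tfrc were also higher in the knockout without overlap, and Blvrb and Ftl1 overlapped. The summed list was itself lower in the knockout, which raises any ratio to it, so the rise is not particular to Slc40a1. The order of the 6 libraries was compared for 60 pairs of gene and list, and it was the same for 2, Slc11a1 with macrophage and Slc48a1 with skeletal muscle genes.

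**Figure D3:**
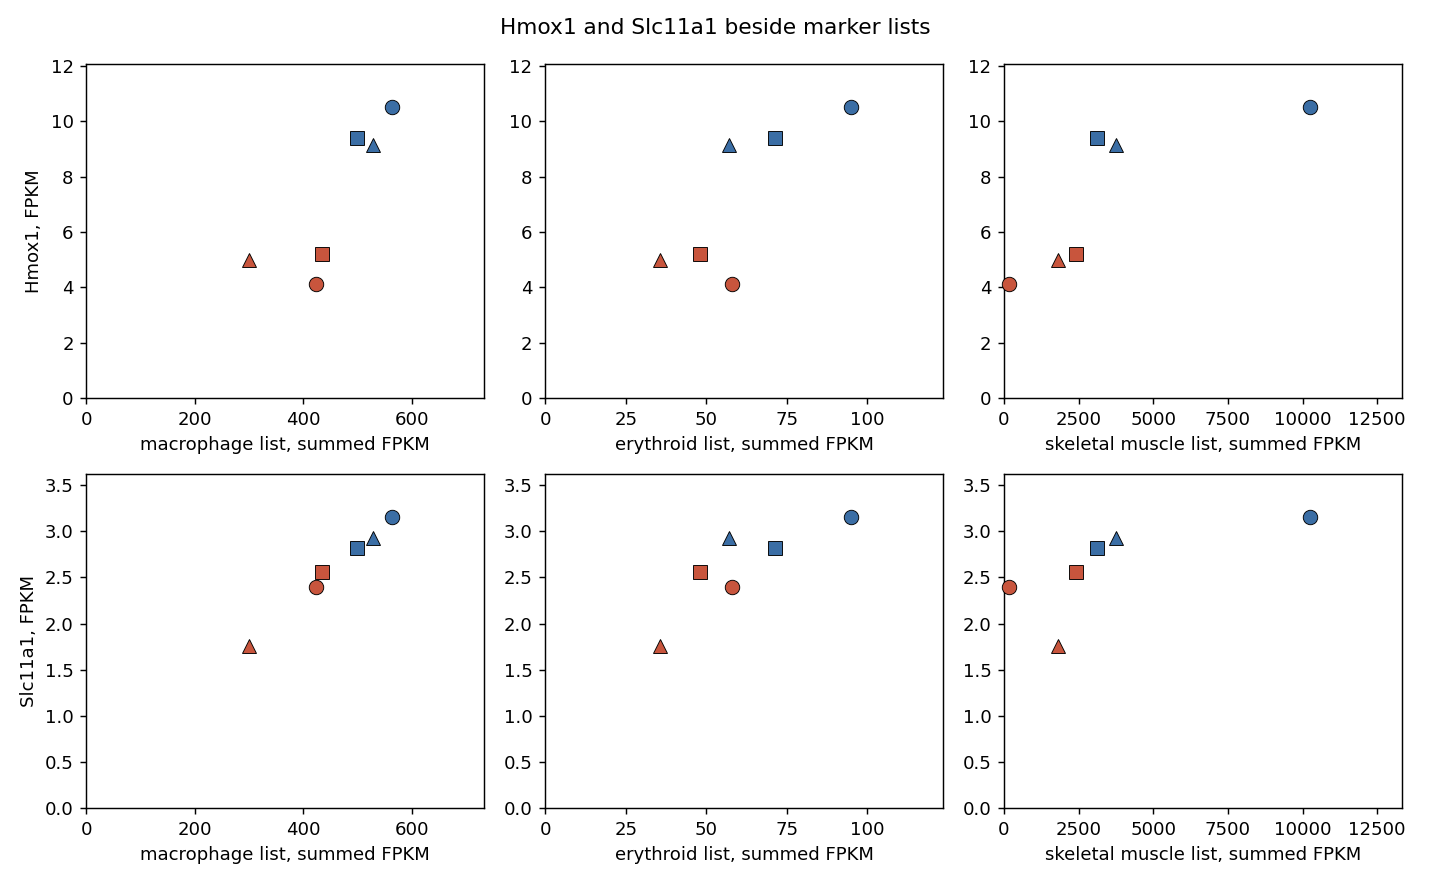
Level of Hmox1 (top) and Slc11a1 (bottom) in FPKM against the summed FPKM of the macrophage, erythroid and skeletal muscle lists, all axes linear from 0, 1 point per library (blue wildtype, red knockout; circle, square and triangle are libraries 1, 2 and 3). Slc11a1 lies near a line through the origin with the macrophage list. For Hmox1, at 4.13 to 5.20 FPKM in the knockout, libraries 1 and 2 lie below such a line through the wildtype libraries. Knockout library 3 lies close to it.

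Hemoglobin RNA, a mark of blood in the tissue, also varied. The joint row of Hba-a1 and Hba-a2 had 59.5, 46.4 and 37.1 FPKM in wildtype mice and 37.3, 31.5 and 23.4 FPKM in TNFR2-/- mice. The joint row of Hbb-b1 and Hbb-b2 had 34.3, 23.6 and 18.4 FPKM against 19.5, 15.1 and 10.9 FPKM. In both rows knockout library 1 overlapped wildtype library 3, and neither row passed limma (Benjamini-Hochberg adjusted p = 0.274 and 0.305). Markers of red cell precursors were near 0, with Slc4a1 at most 0.0486 FPKM and Gata1 at most 0.0484 FPKM. Per 100 FPKM of the erythroid list, Hmox1 was 11.04, 13.2 and 15.99 in wildtype and 7.13, 10.8 and 14.0 in knockout libraries, which overlapped. The same ratio to the skeletal muscle list ran from 0.102 to 0.300 in wildtype and from 0.216 to 2.29 in knockout libraries. To the skin list it ran from 0.805 to 2.31 and from 0.513 to 6.33, so that both overlapped. Hmox1 per 100 FPKM of the colon epithelium and smooth muscle lists did not overlap.

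Fits with the mean log2 level of a marker list as a covariate were made, those for skeletal muscle, macrophage and erythroid genes after the data had been seen. The skeletal muscle and macrophage means did not overlap between genotypes, so those fits cannot tell list and genotype apart. With the skeletal muscle list the Hmox1 difference was -0.68 ± 0.09 (SE) and was not called. With the macrophage list it was -0.93 ± 0.15 and with the erythroid list -0.89 ± 0.16, neither called. The erythroid covariate rests on the 2 tested rows of that list, the joint hemoglobin rows, and holds no marker of red cell precursors. With the skin list mean as a covariate the Hmox1 difference was -0.81 ± 0.10 and was called, and without wildtype libraries 1 and 3 and knockout library 1 it was -0.77 ± 0.16, with the lone wildtype library assumed to vary like the knockout ones. All 12 skeletal muscle genes had lower means in the knockout, 11 of them without overlap (21.8% of all tested genes did not overlap). Hmox1 and the summed skeletal muscle list were both highest in wildtype library 1 and lowest in knockout library 1. So was the summed smooth muscle list, at 10226 and 5896 FPKM. The skin list was lowest in knockout library 1 too, but highest in wildtype library 3.

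Beyond the 10 genes, 84 genes of 6 pathway lists were tested, each counted once, and none was called in limma over all genes, with or without the intensity trend. Of these, 10 had an unadjusted p under 0.05 (11.9%, against 16.2% of all tested genes). Groups did not overlap for 15 (17.9%, against 21.8% of all tested genes), 3 higher and 12 lower in the knockout. Their median log2 difference was -0.04. None of the 6 lists had a median outside -0.07 to 0.01.

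The list of transcription factors that act on the Hmox1 promoter, which also holds the Nrf2 adaptor Keap1, had 16 tested genes, 6 with higher and 10 with lower means and a median log2 difference of -0.02. Atf4 and Nfe2l1, the most abundant, had 87.2 ± 1.29 and 64.9 ± 5.72 FPKM in wildtype mice and 83.3 ± 4.84 and 58.9 ± 2.39 FPKM in TNFR2-/- mice (SD, n = 3 each). The other factors named here were chosen after their values were seen. Nfe2l2, which encodes Nrf2, the main activator of Hmox1, had 48.2 ± 2.54 and 48.0 ± 2.82 FPKM. Keap1, which marks Nrf2 for degradation, had 18.8 ± 0.549 and 20.0 ± 1.22 FPKM, and Bach1, the heme-sensing repressor of Hmox1, had 10.3 ± 1.00 and 10.1 ± 0.451 FPKM. Hif1a, the oxygen-sensitive factor, had 47.2, 57.3 and 50.3 FPKM in wildtype mice and 42.9, 34.3 and 43.0 FPKM in TNFR2-/- mice. The Hif1a groups did not overlap, but the difference of -0.36 ± 0.12 (SE) missed the limma threshold (Benjamini-Hochberg adjusted p = 0.256). Fos, a subunit of the AP-1 factor, went the other way, with 31.1, 38.9 and 37.2 FPKM in wildtype mice and 40.1, 52.9 and 84.7 FPKM in TNFR2-/- mice. Its groups did not overlap either, and the difference of 0.65 ± 0.27 (SE) missed the threshold too (adjusted p = 0.311 in limma).

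Of 20 tested Nrf2 target genes 10 had higher and 10 had lower means without TNFR2, and the median log2 difference was 0.01. Of these, 3 had an unadjusted p under 0.05, all with lower means in the knockout, and 2 had groups that did not overlap, both lower. Among all tested genes these held for 16.2% and 21.8%, so nothing is read from the 2 counts. The 3 genes were Ephx1, an epoxide hydrolase, at -0.31 ± 0.10, Gsta4, a glutathione transferase, at -0.43 ± 0.15, and Abcc1, an efflux pump whose groups overlapped, at -0.19 ± 0.08 (log2 difference, SE). None passed limma (Benjamini-Hochberg adjusted p = 0.258, 0.274 and 0.305), and they were named after their values were seen. Prdx1, a peroxiredoxin, had 460.1 ± 18.95 and 461 ± 50.9 FPKM, and the glutathione transferase gene Gstm1 had 223 ± 11.1 and 241 ± 23.4 FPKM (SD, n = 3 each). Nqo1, a quinone reductase often read as a marker of Nrf2 activity and named here after its values were seen, had 15.7, 16.8 and 13.8 FPKM in wildtype. It had 16.8, 15.2 and 18.7 FPKM in TNFR2-/- mice, overlapping the wildtype range.

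Heme synthesis genes numbered 8, with 2 higher and 6 lower means and a median log2 difference of -0.05. Urod and Alad, the most abundant, had 36.2 ± 2.22 and 35.6 ± 3.82 FPKM in wildtype mice and 35.1 ± 2.11 and 31.8 ± 4.63 FPKM in TNFR2-/- mice (SD, n = 3 each). Alas1, the rate-limiting enzyme outside red cells, was named after its values were seen. It had 32.7, 36.2 and 32.6 FPKM in wildtype mice and 26.7, 22.4 and 32.3 FPKM in TNFR2-/- mice, with knockout library 3 just under the wildtype range, and missed the limma threshold (Benjamini-Hochberg adjusted p = 0.297). Of 10 genes of heme and hemoglobin transport 4 had higher and 6 lower means, with a median of -0.07. Pgrmc1, a heme-binding membrane protein, had 64.0 ± 0.878 and 58.4 ± 0.396 FPKM. Slc46a1, a folate carrier that also moves heme, had 30.95 ± 4.66 and 33.9 ± 2.29 FPKM.

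Iron uptake, export and handling held 20 tested genes, 7 with higher and 13 with lower means and a median log2 difference of -0.07. An unadjusted p under 0.05 in limma was seen for 3 of the 20, and for 16.2% of all tested genes. The iron chaperone genes Pcbp1 and Pcbp2 had 151 ± 8.54 and 78.2 ± 1.79 FPKM in wildtype mice and 146 ± 14.8 and 82.9 ± 3.08 FPKM in TNFR2-/- mice (SD, n = 3 each). Ferroxidases load exported iron onto transferrin and work beside ferroportin. Heph, the gut ferroxidase, had 16.01, 21.8 and 16.8 FPKM in wildtype mice and 23.0, 16.9 and 21.9 FPKM in TNFR2-/- mice, with overlapping groups. Cp, ceruloplasmin, had 3.73, 3.13 and 3.89 FPKM against 2.29, 2.57 and 1.82 FPKM. The Cp groups did not overlap, and the difference of -0.51 ± 0.12 (SE) missed the limma threshold (Benjamini-Hochberg adjusted p = 0.187). Slc39a8, a metal importer that can carry iron, went the other way, with 3.46, 4.04 and 3.23 FPKM against 6.13, 4.22 and 4.49 FPKM. Its groups did not overlap, and the difference of 0.37 ± 0.14 (SE) missed the threshold (adjusted p = 0.279 in limma). Heph, Cp, Slc39a8 and Ncoa4 were named after their values were seen. Ncoa4, the receptor that delivers ferritin for breakdown, had 41.8 ± 1.69 and 41.8 ± 0.723 FPKM.

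Iron sensing and the hepcidin axis held 10 tested genes, 5 higher and 5 lower, with a median log2 difference of -0.01. Groups did not overlap for 3 of the 10, all lower in the knockout (12.5% of all tested genes did so). These were Hamp2, Fbxl5 and Hfe2. Hamp2 had 7.65, 1.93 and 1.80 FPKM in wildtype mice and 0.729, 1.22 and 1.18 FPKM in TNFR2-/- mice. Fbxl5 had 20.8 ± 1.02 and 18.1 ± 1.23 FPKM (SD). Neither passed limma (Benjamini-Hochberg adjusted p = 0.353 and 0.288). Smad4 and Bmp2, the most abundant, had 36.7 ± 1.82 and 33.7 ± 3.60 FPKM in wildtype mice and 40.2 ± 2.51 and 34.7 ± 1.72 FPKM in TNFR2-/- mice (SD, n = 3 each). Aco1 and Ireb2 encode the iron regulatory proteins that bind the hairpins shown above. They had 21.9 ± 1.17 and 12.04 ± 0.777 FPKM in wildtype mice and 22.7 ± 1.23 and 12.9 ± 1.42 FPKM in TNFR2-/- mice, and both overlapped between genotypes. Hfe2, hemojuvelin, a co-receptor that skeletal muscle expresses, had 20.6, 6.86 and 8.22 FPKM in wildtype mice and 0.391, 5.39 and 4.02 FPKM in TNFR2-/- mice. It was lowest in knockout library 1 and highest in wildtype library 1, as were the skeletal muscle genes, and its difference of -1.71 ± 0.77 (SE) missed the limma threshold (Benjamini-Hochberg adjusted p = 0.359). Aco1, Ireb2, Hfe2, Hamp2 and Fbxl5 were named after their values were seen.

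**Figure D4:**
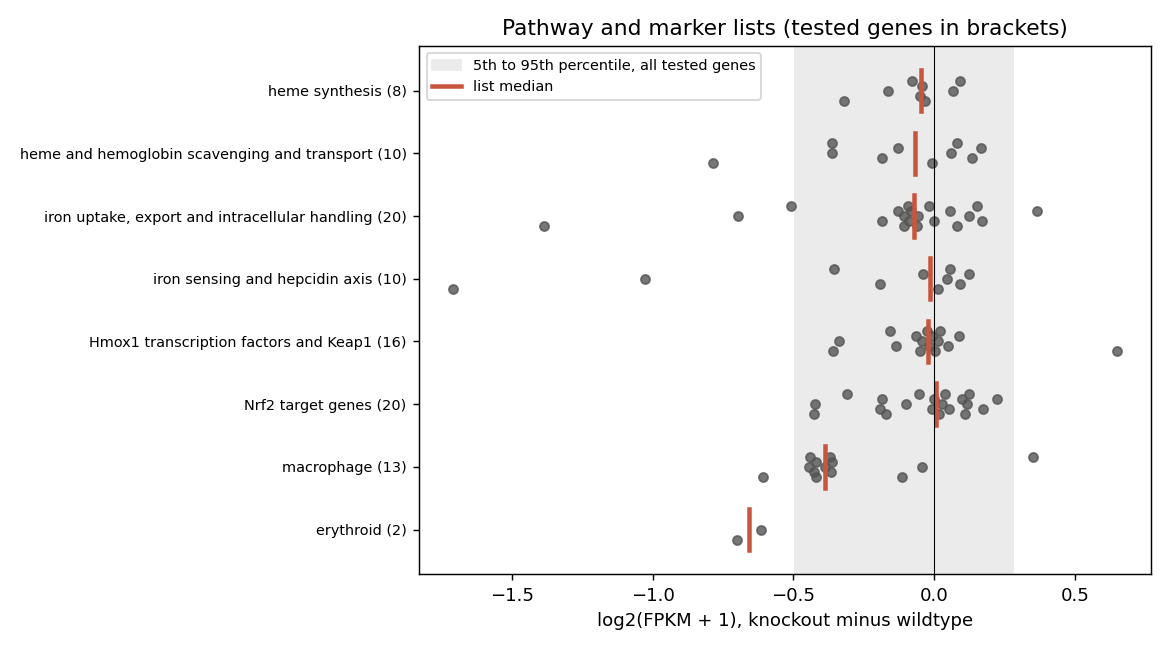
Difference between genotypes on the log2(FPKM + 1) scale for each tested gene (points) of the 6 pathway lists and of the macrophage and erythroid lists, with list medians as vertical bars. The grey band is the 5th to 95th percentile of all tested genes. Pathway medians lie between -0.07 and 0.01, and the macrophage median lies at -0.39.

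Likeness to Hmox1 was ranked by Pearson correlation of log2(FPKM + 1) over the 6 libraries among 10874 singly named genes whose mean reached 2 FPKM. The libraries fall into 2 genotype groups, so a gene with a clean genotype difference scores high, and 217 genes reached 0.9. The 5 highest were Rnf2 (r = 0.99), Clip1 (r = 0.99), Ccdc109b (r = 0.98), Slc31a2 (r = 0.98) and Kazald1 (r = 0.98). Within the genotypes, as deviations from the group means, their correlations were 0.81, 0.67, 0.74, 0.66 and 0.45. Ccdc109b, a subunit of the mitochondrial calcium uniporter, had a larger difference than Hmox1, with 3.53 ± 0.111 FPKM in wildtype mice and 1.03 ± 0.0936 FPKM in TNFR2-/- mice (SD, n = 3 each). The other 4 stood at 79.3% to 91.9% of wildtype. Slc31a2, a copper transporter, had 14.3 ± 0.351 and 11.5 ± 0.491 FPKM. Among the 9 other members the correlation with Hmox1 ran from -0.96 for Slc40a1 to 0.85 for Slc48a1. Within the genotypes it was -0.39 for Slc40a1, and over the 9 members it ran from -0.93 for Blvrb to 0.53 for Slc48a1. Blvrb had 0.65 over the 6 libraries. These correlations describe 6 libraries and carry no test.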

How the data were processed

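The deposited table holds 1 FPKM value per gene and library, per the file headers, and the authors' group FPKM, log2 ratio or fold change, p-value and adjusted p-value. Reads were mapped by the authors with Tophat2 and Bowtie2, then passed to Cufflinks and Cuffdiff 2, as the series' design text states. The submitters' processing notes name mm10. No label or header gives the tool versions, annotation, strand handling or library scaling.

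Values were analysed as log2(FPKM + 1) in R 4.3.3 with limma 3.58.1, trend and robust options on, over 14564 named rows with a mean of at least 0.5 FPKM in the 6 libraries. A gene was called where its Benjamini-Hochberg adjusted p was below 0.05. Fold changes on this scale understate those of low genes. Rows without a gene name, 6.13% of rows and 17.7% of summed FPKM, were left out. P-values set the genotype difference against the spread between the 3 mice of each genotype. That spread is pooled over both genotypes and moderated by limma toward that of genes of similar level. The fit was tested on simulated data.

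Members, lists and tests were chosen with earlier results of these data known. Named were the members, Tnfrsf1b, called list genes or else the 2 most abundant of each list that is described by gene (lists of neighbouring tissue are given as summed levels), and the 5 genes most like Hmox1, other names being marked. Of the marker lists, skin, colon epithelium, smooth muscle and neutrophil genes had 0 calls among 12, 11, 8 and 4 tested rows, with median log2 differences of -1.17, 0.11, -0.22 and -0.07, and skeletal muscle 0 of 12, with -2.45. Spic, Cd163, Alas2 and Ltf stand in 2 lists each. Hairpins were searched with Python 3.11.15 in GENCODE M21, whose positions overlapped the table for all 10 members.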

Additional observations from a re-analysis of the deposited data

How the results depend on the processing

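In all, 19 alternatives were tried, 3 of them (the skeletal muscle, macrophage and erythroid covariates) chosen after seeing the data. The Hmox1 difference kept its direction in each, from -1.01 to -0.68, and 178 of 190 member values moved by less than 1 SD of the replicates. Hmox1 was called in 11 alternatives and lost its call in 8. Leaving out single libraries gave 0 to 1 members called, with the call lost without wildtype 1 or 3 or knockout 2 or 3, and 21 to 70 genes called, 13 to 34 higher and 8 to 36 lower. The replicate numbers did not pair the libraries (correlation of deviations -0.38, -0.34 and 0.21 for numbers 1, 2 and 3). With the replicate block, 24 genes were called, 14 higher, and 0 members. With the skeletal muscle covariate the Hmox1 difference was -0.683, and 21 genes were called, 14 higher and 7 lower. With the macrophage covariate 14 were called, 10 higher and 4 lower, and with the erythroid covariate 17, 12 higher and 5 lower, and each of these 3 fits called 0 members. With the skin covariate 27 were called, 17 higher, and with a pseudocount of 0.1, 16 were called higher. Without wildtype 1 and 3 and knockout 1, a fit that leaves 1 wildtype library whose spread is assumed to be that of the knockout libraries, 111 were called, 57 higher and 54 lower, and 1 list gene, Myh4. The causes of these shifts were not tested. No scaling moved the median of all genes by over 0.1. Slc48a1 overlapped under quantile and upper quartile scaling, and Tfrc did not overlap without knockout 2. The table gives no counts, so the limit that depth sets is unknown.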
